A study of Mus musculus with 8 samples.

Results

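The genes described here are those of the core cell death machinery on a mouse skin array: the BCL2 and BNIP families, the caspases, the BIRC inhibitors, the numbered TNF receptors, and Apaf1 and Fadd. They were taken by gene symbol, with a value on at least 3 arrays, which gave 47 genes of the 6512 genes named on the array. One more gene with a matching symbol, Bcl2, fell outside that limit, with a value of 0.062 on array 2 alone. The member just inside the limit was Bcl2l11, with values on 3 arrays (0.56, -0.65 and -0.65). Each member was read by 1 probe, identified by its RefSeq accession (Bak1 by NM_007523, Casp14 by NM_009809).

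Skin RNA of near naked hairless mutant mice was compared with skin RNA of wild type mice, both 7 days old, on 8 arrays with 2 dyes each. In the mutant, the coat is sparse or absent, and the line is named for this. Dyes were swapped: the mutant was labelled with Cy5 for arrays 2, 4, 6 and 7, and with Cy3 for arrays 1, 3, 5 and 8. The design text speaks of 1 litter with 5 biological replicates. Since no label ties an array to an animal, p-values measure the spread between arrays, part of which may be technical, and an animal may be on several arrays. The strain, the allele and the number of animals pooled per array are not stated. Every value below is a log2 ratio of mutant over wild type, so 0 means equal signal and 1 means a doubling. The direction is the likely one from the design text, since the labels call the channels only sample and control, and base 2 is assumed. A ratio carries no level, so neither the abundance of a gene nor the identity of the tissue could be read from it.

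Cells that die by the mitochondrial route do so when BAX or BAK1 opens the outer mitochondrial membrane. BH3-only proteins push towards that step and BCL2-like survival proteins hold it back. Released cytochrome c then assembles APAF1 with caspase 9, which cleaves the executioner caspases, while death receptors of the TNF family start a second route through FADD. In skin, programmed death drives the regression of hair follicles, and caspase 14 acts in the cornifying layers of the epidermis without killing cells in the usual way. Because whole skin was used, a shift in a ratio cannot tell fewer cells of a type from less RNA per cell.

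The test was a limma fit of each probe's ratios with 2 terms: the mean ratio, which is the comparison of mutant with wild type, and a dye part, which is positive where the ratio was higher with the mutant in Cy5. A probe entered it if each dye orientation had a value on 3 or more of its 4 arrays, which 11974 of 21766 probes and 31 of the 47 members had. Adjusted p-values are by the Benjamini-Hochberg method over all probes tested, and a call is an adjusted p below 0.05. The arrays differed in completeness and spread. A value was present in 41.3% of rows on array 3 and in 88.3% on array 6, and the SD of all ratios on an array lay between 0.57 (array 5) and 1.60 (array 2). Of the 47 members, 22 had a value on array 3 and 46 on array 6. The probe for Hr, the hairless gene, averaged -0.17 ± 0.64 (SD, n = 6 arrays), above 0 on 3 arrays and below 0 on the other 3. Whether that probe covers a part altered in the mutant is not stated.

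Over all probes, 81 were higher in the mutant (0.676%) and 423 lower (3.53%), and quantile normalization of the arrays changed that split to 380 and 757. Among the 31 members tested, 1 was higher, the pore-forming gene Bak1, and 0 were lower. At an unadjusted limma p below 0.05 there were 10 members higher and 1 lower, where 10.2% and 10.3% of all probes passed in each direction. The fitted ratios of the members lay between -0.55 and 0.93, with 22 above 0 and 9 below. Their median was 0.26, against 0.05 for all probes tested, and 71.0% of members against 55.0% of probes were above 0. The median was 0.13 over the 29 members that could be tested without array 2, 0.064 over the 23 without array 3, and 0.0089 over the 39 on arrays 4 to 8 alone, where the median of all probes was -0.022. Both the arrays and the members differ between these values.

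**Figure D1:**
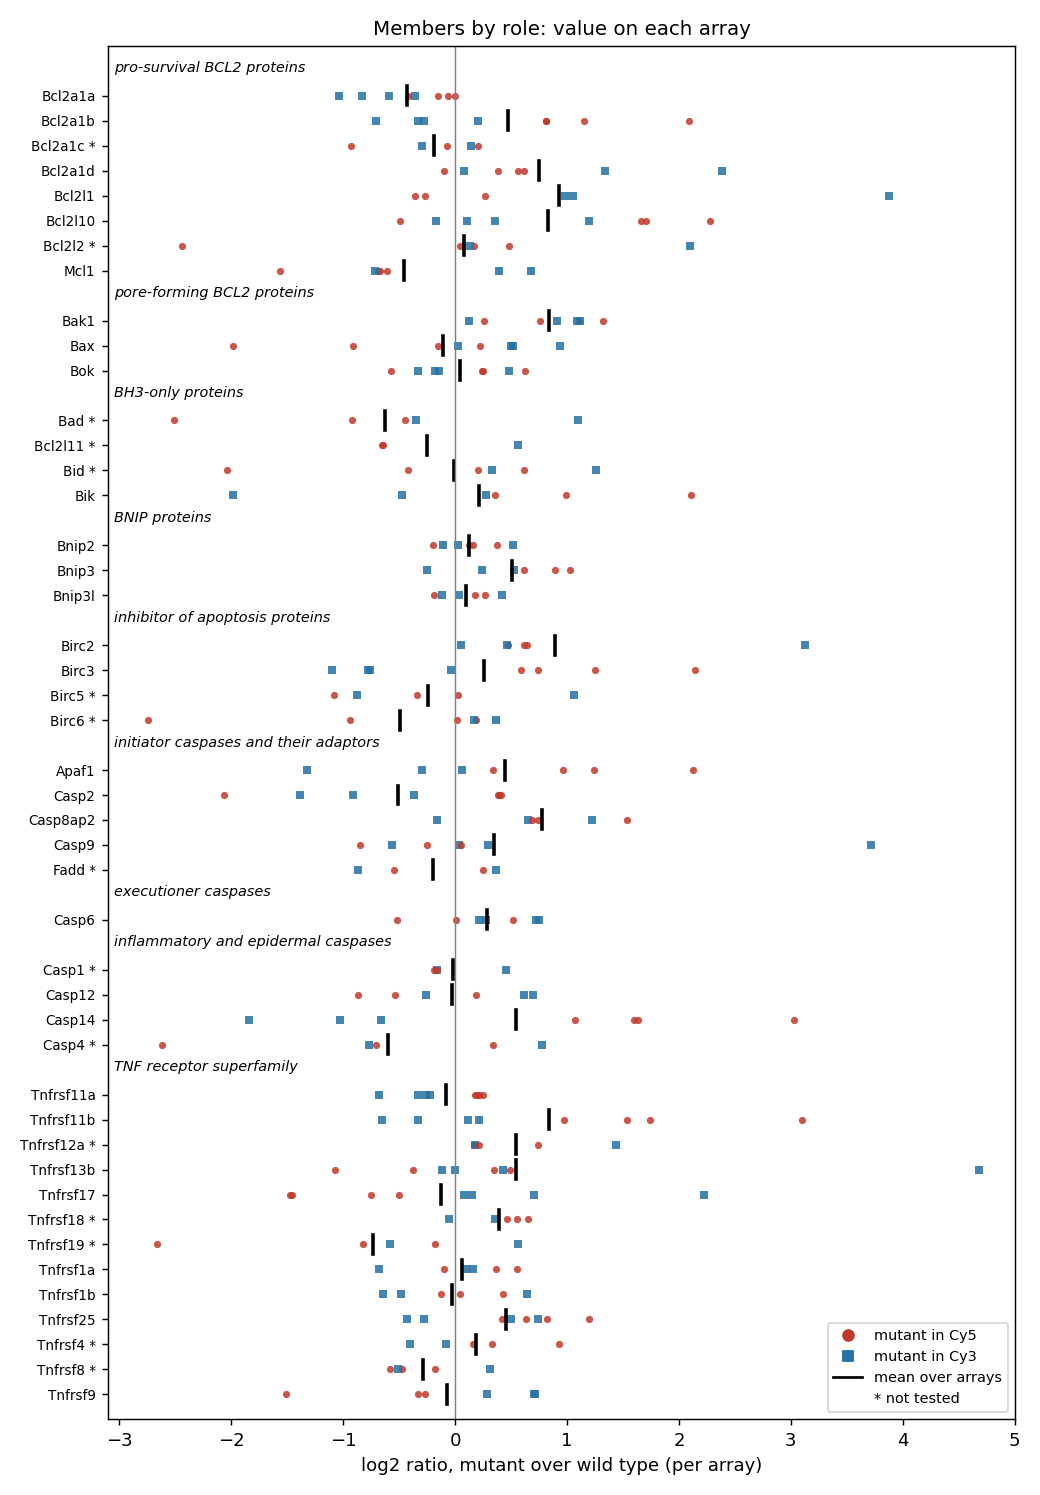
The log2 ratio of mutant over wild type (x axis) is plotted for 45 members by role, with 1 point per array, circles for arrays with the mutant in Cy5, squares for arrays with the mutant in Cy3, a bar at the mean and an asterisk for members not tested. Bak1 has all 8 points to the right of 0, and Bcl2a1a has all 8 to the left.

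The pore-forming proteins BAK1, BAX and BOK sit at the step that commits a cell to die. Bak1 was the member that passed the test. Its ratio was 0.91, 1.09, 0.12 and 1.12 on the arrays with the mutant in Cy3 (1, 3, 5 and 8) and 1.11, 1.32, 0.76 and 0.26 on those with the mutant in Cy5 (2, 4, 6 and 7). It was above 0 on all 8 arrays, lowest on arrays 5 and 7, and the dye orientations overlapped, with means of 0.81 and 0.86. The fitted ratio was 0.84 ± 0.19 (SE), with a 95% interval of 0.42 to 1.25 and an adjusted p of 0.0295. On a linear scale this is 1.78-fold, with an interval of 1.34 to 2.38. The ratio stayed between 0.76 and 0.95 when any 1 array was left out. The call did not hold in every such fit: the adjusted p was 0.0871, 0.0648, 0.0533, 0.0702 and 0.0538 on leaving out array 1, 2, 3, 4 or 6 in turn, and it was 0.0534 with no dye term, 0.0514 with probes on at least 3 arrays in all, and 0.272 on arrays 4 to 8 alone.

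Bax, the close functional partner of Bak1, showed no such shift. Its lowest value was -1.98 (array 7), its median 0.12 and its highest 0.93 (array 3), and the fitted ratio was -0.11 (95% interval -0.62 to 0.41, adjusted p = 0.838). With the mutant in Cy3 its mean was 0.49 ± 0.37 (SD, n = 4), and with the mutant in Cy5 it was -0.71 ± 0.97 (SD, n = 4), with some overlap. Bok, the third relative, lay at 0.045 (interval -0.36 to 0.45, adjusted p = 0.919). The intervals of Bax and Bok ended below the fitted ratio of Bak1, and the difference between the genes was not tested.

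**Figure D2:**
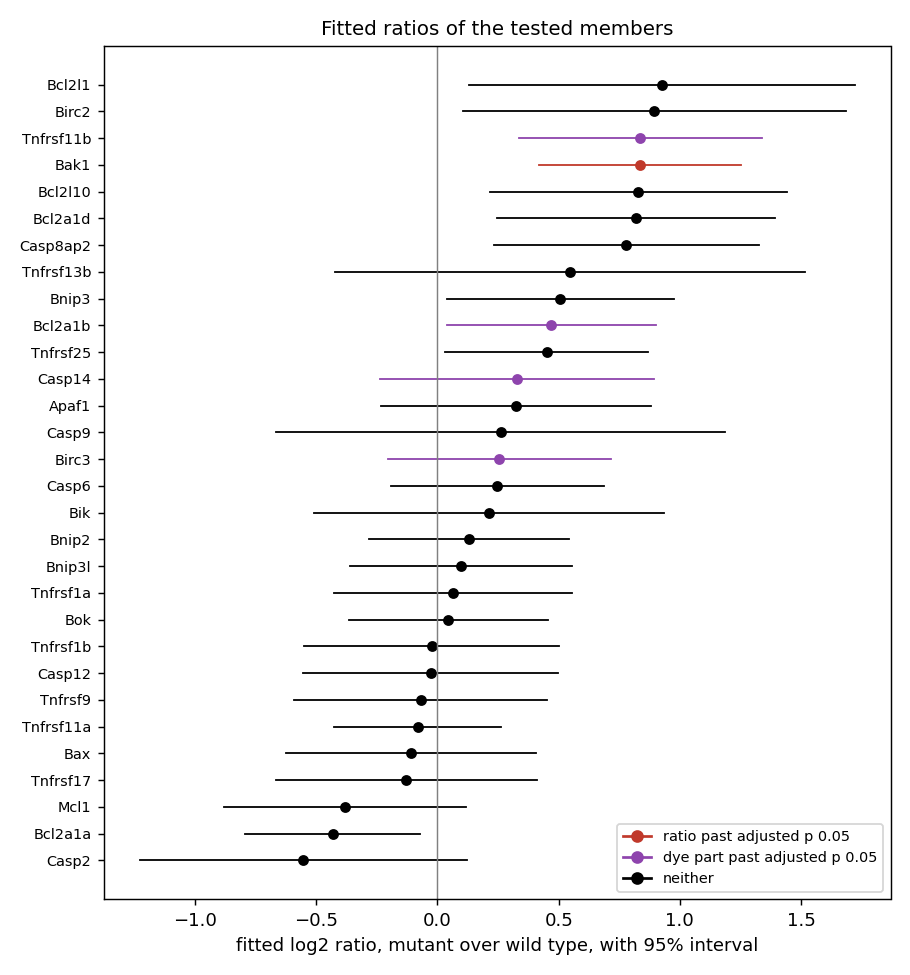
The fitted log2 ratio of mutant over wild type (x axis) with its 95% interval is drawn for 30 of the members tested, sorted by ratio, with colour for members past the test in the ratio or in the dye part. Bak1, at 0.84, is the member coloured for its ratio, and members with larger ratios such as Bcl2l1 (0.93) and Birc2 (0.89) have wider intervals.

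Of the 8 pro-survival BCL2 genes, 6 could be tested and 0 passed, with a median fitted ratio of 0.64. Bcl2l1, which encodes BCL-XL, had the highest ratio of the members tested, 0.93 (adjusted p = 0.180), but its values were 3.88 on array 3, 1.05 on array 1 and 0.98 on array 5 against 0.26, -0.36 and -0.27 on arrays 4, 6 and 7. The arrays with the mutant in Cy3 were thus all above those with the mutant in Cy5, and the dye part was -1.05 (adjusted p = 0.0856). After scale normalization of the arrays Bcl2l1 passed as higher, at 0.79 with an adjusted p of 0.0489. Bcl2l10, a relative of the survival proteins, was at 0.83 (adjusted p = 0.120), above 0 on 6 of 8 arrays, and it passed when array 6, its lowest at -0.49, was left out. Mcl1, a short-lived survival protein, was at -0.38 (adjusted p = 0.373), below 0 on 5 of 7 arrays. Bcl2l2, which encodes BCL-W, could not be tested, and its 6 values ran from -2.44 to 2.10 with a mean of 0.081.

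Mice carry several copies of Bcl2a1, an NF-kappaB-induced survival gene of blood cells, and the array held a probe for 4 of them. A stretch upstream of each copy was compared. It runs from the first to the last run of 20 bases that all 4 copies share within 250 bases before the start. High identity was thus partly set by that choice, and the stretch lies before the annotated starts, outside the annotated transcripts. It was taken from RefSeq (GRCm38.p6), 5′ to 3′ on the strand of the gene, at chr9:88956780-88956919 (plus strand, Bcl2a1a), chr9:89199089-89199228 (plus, Bcl2a1b), chr9:114329885-114330024 (plus, Bcl2a1c) and chr9:88731851-88731984 (minus, Bcl2a1d). It ends 1 base before the annotated start of Bcl2a1a and Bcl2a1d, 45 bases before that of Bcl2a1b and 111 before that of Bcl2a1c. Capitals mark bases that differ from Bcl2a1a.
Bcl2a1a: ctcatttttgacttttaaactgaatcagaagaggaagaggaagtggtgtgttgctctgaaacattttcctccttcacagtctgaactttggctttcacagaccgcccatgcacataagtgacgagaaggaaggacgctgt
Bcl2a1b: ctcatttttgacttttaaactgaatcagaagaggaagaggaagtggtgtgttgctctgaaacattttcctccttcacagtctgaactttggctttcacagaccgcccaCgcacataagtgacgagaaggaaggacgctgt
Bcl2a1c: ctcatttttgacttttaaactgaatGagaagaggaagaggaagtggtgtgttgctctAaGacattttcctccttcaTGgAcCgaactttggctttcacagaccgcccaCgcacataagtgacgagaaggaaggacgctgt
Bcl2a1d: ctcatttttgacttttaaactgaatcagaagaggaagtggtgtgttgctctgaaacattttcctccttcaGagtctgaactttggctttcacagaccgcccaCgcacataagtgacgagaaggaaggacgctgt

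Bcl2a1b differed from Bcl2a1a at 1 base of 140 and Bcl2a1c at 8, while Bcl2a1d differed at 2 and lacked 6 bases. Identity within this chosen stretch ran from 90.7% between Bcl2a1c and Bcl2a1d to 99.3% between Bcl2a1a and Bcl2a1b. The probe sequences were not analysed here, so how far each probe reads its own copy was not tested, and the values of the 4 copies are uncertain for that reason.

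The fitted ratios of the copies tested differed in sign. Bcl2a1a and Bcl2a1b nevertheless both had their lowest value on array 3. Both also had a higher mean with the mutant in Cy5 than in Cy3, -0.16 against -0.70 and 1.22 against -0.28. Bcl2a1a was below 0 on 8 of 8 arrays, with -1.04 the lowest (array 3), a median of -0.39 and -0.00082 the highest (array 4), and its fitted ratio of -0.43 did not pass (95% interval -0.79 to -0.071, adjusted p = 0.166). Bcl2a1b was 2.09, 1.15, 0.82 and 0.81 with the mutant in Cy5 (arrays 2, 4, 6 and 7) and 0.21, -0.71, -0.33 and -0.28 with the mutant in Cy3 (arrays 1, 3, 5 and 8). Its orientations did not overlap, its ratio was 0.47 (adjusted p = 0.202), and its dye part of 0.75 ± 0.20 (SE) passed at an adjusted p of 0.0483. Bcl2a1d was at 0.82 (adjusted p = 0.107), highest on arrays 8 (2.39) and 3 (1.34). Bcl2a1c had 5 values, with a mean of -0.19 ± 0.46 (SD), and was not tested. Bcl2a1b lay above Bcl2a1a on 8 of 8 arrays, by 0.022 to 2.15, and Bcl2a1d lay above it on 6 of 7.

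**Figure D3:**
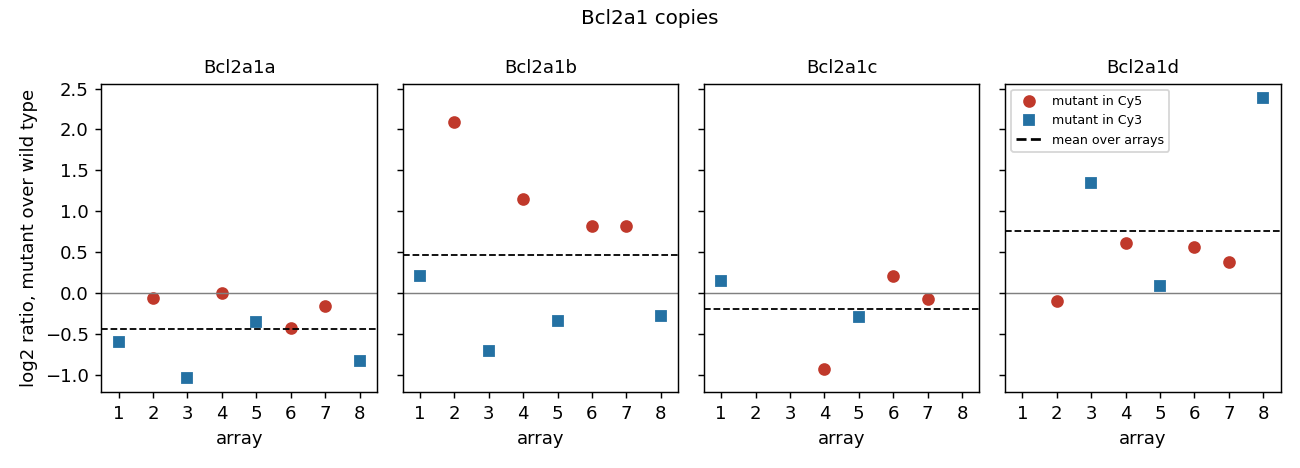
The log2 ratio of mutant over wild type (y axis) is plotted by array (x axis) for the 4 Bcl2a1 copies, with circles for the mutant in Cy5, squares for the mutant in Cy3 and a dashed line at the mean. Bcl2a1a lies at or below 0 throughout, while Bcl2a1b separates by dye orientation.

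BH3-only genes encode the sensors that start the mitochondrial route, and they were the thinnest group, with 1 of 4 testable. Bik lay between -1.99 (array 3) and 2.11 (array 4), with a ratio of 0.21 (adjusted p = 0.758) and a dye part of 0.94 (adjusted p = 0.0868). Bad, Bid and Bcl2l11 (BIM) had means of -0.63, -0.010 and -0.25 over 5, 6 and 3 arrays, with SDs of 1.30, 1.14 and 0.70, and were not tested. The BNIP genes were all tested and 0 passed. Bnip3, a mitochondrial protein that marks mitochondria for removal and responds to low oxygen, was above 0 on 5 of 6 arrays, with a ratio of 0.51 (95% interval 0.040 to 0.97, adjusted p = 0.206). Its relative Bnip3l was at 0.098 (interval -0.36 to 0.55) and Bnip2 at 0.13.

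The BIRC proteins are named for a domain first found in viral inhibitors of apoptosis. Birc2 and Birc3 encode cIAP1 and cIAP2, ubiquitin ligases of TNF receptor complexes, and are neighbours in the genome. Both were tested, 2 of the 4 BIRC genes, and 0 passed in the ratio. Birc2 was above 0 on all 6 arrays that measured it, at 0.051, 0.47, 0.47, 0.64 and 0.61 on arrays 1, 4, 5, 6 and 7 and at 3.12 on array 8. Array 8 stood far above the rest, the ratio was 0.89 ± 0.36 (SE), and it did not pass (adjusted p = 0.190). Birc3 was instead split by dye, at 2.14, 1.25, 0.74 and 0.59 with the mutant in Cy5 and at -0.041, -1.10, -0.78 and -0.76 with the mutant in Cy3. Its ratio was 0.26 (adjusted p = 0.532) and its dye part was 0.93 ± 0.21 (SE), with an adjusted p of 0.0372. Birc5, the dividing-cell protein survivin, and Birc6 were not tested, with means of -0.24 over 5 arrays and -0.49 over 6, and Birc6 took that mean from arrays 2 (-2.74) and 4 (-0.94), with its other 4 values between 0.015 and 0.36.

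Among the initiator caspases and their adaptors, 4 of 5 were tested and 0 passed. Casp8ap2, which encodes FLASH, a nuclear protein of histone RNA processing, was above 0 on 5 of 6 arrays, with a ratio of 0.78 (95% interval 0.23 to 1.33, adjusted p = 0.109). Apaf1, the scaffold of the apoptosome, was at 0.32 (adjusted p = 0.507), lowest at -1.33 (array 3) and highest at 2.12 (array 2), with a dye part of 0.84 (adjusted p = 0.0649). Casp9, its caspase, was at 0.26 (adjusted p = 0.772), with 3.72 on array 3 and no other value above 0.30. Casp2 had the lowest ratio of the members tested, -0.55 (interval -1.23 to 0.12, adjusted p = 0.337). Its lowest values were on arrays 2 (-2.06), 1 (-1.38) and 5 (-0.91), and arrays 4, 6 and 7 gave 0.39, 0.41 and 0.38. Fadd, the adaptor of the death receptors, had 4 values with a mean of -0.20 ± 0.60 (SD).

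Casp6 encodes a caspase that acts late in the cascade, where cleaved proteins dismantle the cell. Its lowest value was -0.52 (array 6), its median 0.28 and its highest 0.75 (array 3). It was above 0 on 6 of 7 arrays, the dye orientations overlapped, and the ratio of 0.25 did not pass (interval -0.19 to 0.69, adjusted p = 0.525).

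The remaining caspases act in inflammation or in the epidermis, with 2 of 4 tested and 0 past the test in the ratio. Casp14, which takes part in filaggrin breakdown in the cornifying epidermis, was 3.03, 1.07, 1.63 and 1.60 with the mutant in Cy5 (arrays 2, 4, 6 and 7) and -0.66, -1.03 and -1.84 with the mutant in Cy3 (arrays 3, 5 and 8). Every value of the first set was above 0 and every value of the second below it, with means of 1.83 ± 0.84 (SD, n = 4) and -1.18 ± 0.60 (SD, n = 3). The dye part was 1.50 ± 0.26 (SE), with an adjusted p of 0.0301, and the ratio left after it was 0.33 ± 0.26 (SE), with an adjusted p of 0.509. Casp12 was at -0.028 (interval -0.55 to 0.50, adjusted p = 0.961). Casp1, which matures interleukin-1 beta, and Casp4 were not tested, with means of -0.015 over 4 arrays and -0.60 over 5.

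**Figure D4:**
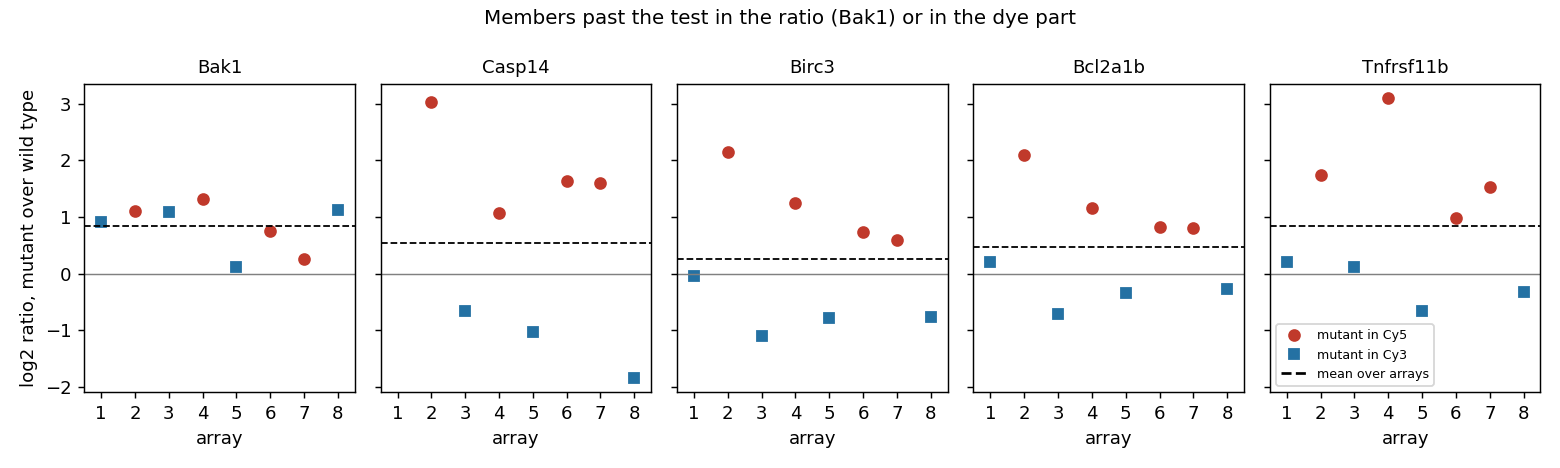
The log2 ratio of mutant over wild type (y axis) is plotted by array (x axis) for the members past the test, with circles for the mutant in Cy5, squares for the mutant in Cy3 and a dashed line at the mean over arrays. Bak1 lies above 0 in both orientations, whereas Casp14, Birc3, Bcl2a1b and Tnfrsf11b are higher on every array with the mutant in Cy5.

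The numbered TNF receptors were the largest group, with 13 members, of which 8 were tested and 0 passed in the ratio, with a median of 0.02. Tnfrsf11b encodes osteoprotegerin, a secreted decoy that binds the ligand of RANK. It was 1.74, 3.10, 0.97 and 1.53 with the mutant in Cy5 (arrays 2, 4, 6 and 7) and 0.21, 0.11, -0.65 and -0.33 with the mutant in Cy3 (arrays 1, 3, 5 and 8). The orientations did not overlap, although 6 of 8 values were above 0. Both terms were large: the ratio was 0.84 ± 0.23 (SE, adjusted p = 0.0633) and the dye part 1.00 ± 0.23 (SE, adjusted p = 0.0372). The ratio passed after quantile normalization (adjusted p = 0.0387), among probes with values on all 8 arrays (0.0372) and without array 6 (0.0413). The last was the 1 of 8 fits with an array left out in which it passed. Other settings in which it did not pass include scale normalization (0.0805) and probes on at least 3 arrays in all (0.109). Nor did it pass with no dye term (0.296) or on arrays 4 to 8 alone (0.336).

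Tnfrsf11a, which encodes RANK itself, was at -0.081 (interval -0.43 to 0.26, adjusted p = 0.813). Its spread was small, with 0.21 ± 0.031 (SD, n = 4) for the mutant in Cy5 and -0.37 ± 0.21 (SD, n = 4) for the mutant in Cy3. The 2 classical TNF receptors lay close to 0, Tnfrsf1a at 0.064 (interval -0.42 to 0.55) and Tnfrsf1b at -0.024 (interval -0.55 to 0.50). Tnfrsf25, the death receptor DR3, was above 0 on 6 of 8 arrays, with a ratio of 0.45 (interval 0.033 to 0.87, adjusted p = 0.208). Tnfrsf17 and Tnfrsf13b encode BCMA and TACI, receptors of B cells. Tnfrsf17 had the lowest fitted ratio of the group, -0.13 (adjusted p = 0.811), with every value with the mutant in Cy3 above 0, every value with the mutant in Cy5 below it, and a dye part of -0.92 (adjusted p = 0.0506). Tnfrsf13b was at 0.55 (adjusted p = 0.525), a value that came from 4.68 on array 8, with its other 7 values between -1.07 and 0.49. Tnfrsf9, a costimulatory receptor of T cells, was at -0.069 (adjusted p = 0.900).

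The receptors not tested included the highest and the lowest mean of all untested members. Tnfrsf12a, the receptor of TWEAK, was 0.17, 0.18, 0.21, 0.74 and 1.43 on arrays 4 to 8, all above 0, with a mean of 0.55 ± 0.55 (SD). Tnfrsf19, which encodes TROY, a receptor of hair follicle and nervous tissue, was -2.67, 0.56, -0.82, -0.18 and -0.58 on the same arrays, with a mean of -0.74 ± 1.20 (SD). Tnfrsf18 (GITR), Tnfrsf4 (OX40) and Tnfrsf8 (CD30), receptors of activated lymphocytes, had means of 0.39, 0.19 and -0.29 over 5 arrays each. In all, 16 members were not tested: each lacked a value on array 3, 13 lacked one on array 2 and 12 on array 1. Their means ran the other way from the fitted ratios of the tested members, with 4 above 0 and 12 below and a median of -0.22, and that difference was not tested.

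More members passed in the dye part than in the ratio. The 4 that passed, Casp14, Birc3, Tnfrsf11b and Bcl2a1b, were all higher with the mutant in Cy5, a direction in which 4.45% of all probes passed. In the other direction 0 members passed, against 0.894% of probes. Among the members tested, the 2 dye orientations did not overlap for 8 that were higher with the mutant in Cy5 and 4 that were lower, where 17.5% and 10.2% of probes tested behaved so. The 8 were Apaf1, Bcl2a1b, Bik, Birc3, Bnip3, Casp14, Tnfrsf11a and Tnfrsf11b, and the 4 included Bcl2l1, Tnfrsf17 and Tnfrsf9. By contrast, a ratio of 1 sign on every array with a value was found for 2 tested members above 0, Bak1 and Birc2, and for 1 below, Bcl2a1a, against 2.5% and 4.56% of probes tested. Tnfrsf12a, which was not tested, was also above 0 on each of its 5 arrays.

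**Figure D5:**
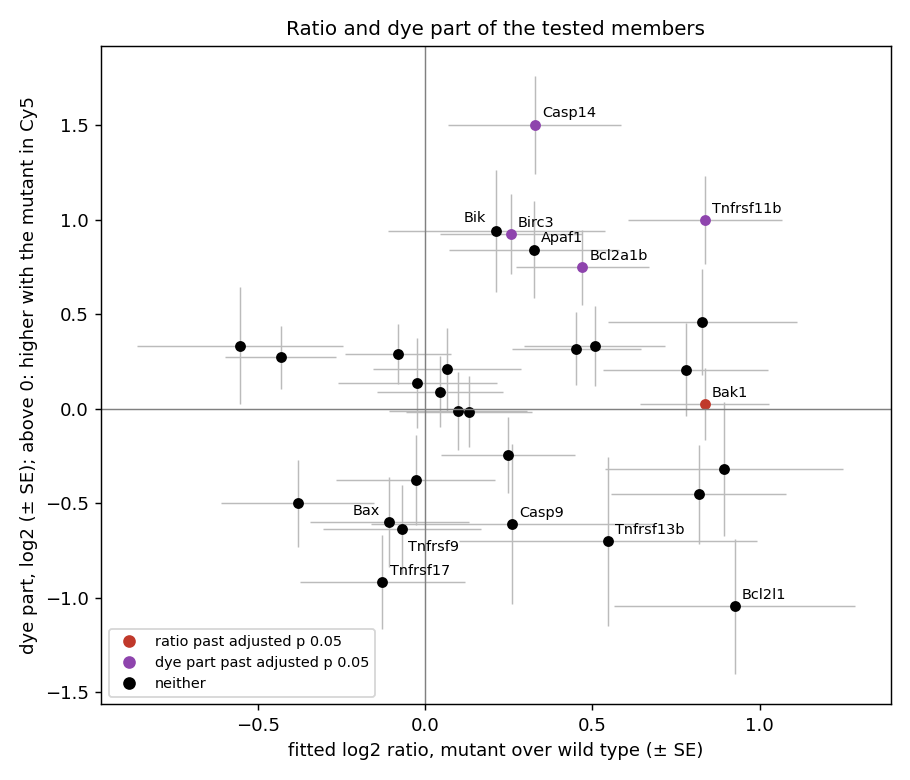
The dye part (y axis, log2, above 0 where higher with the mutant in Cy5) is plotted against the fitted log2 ratio of mutant over wild type (x axis) for 30 of the members tested, with bars of 1 SE on both axes. Bak1 sits far right with a dye part near 0 (0.026), and Casp14 sits at the top, at a dye part of 1.50.

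With 1 array left out, the dye parts lay, in the fits each gene could enter, at 1.30 to 1.63 for Casp14, 0.77 to 1.03 for Birc3, 0.79 to 1.14 for Tnfrsf11b and 0.60 to 0.83 for Bcl2a1b, but not all calls held. With array 3 or 7 left out, 0 members passed in the dye part, with array 2 left out it was Casp14 alone, and with array 5 or 6 left out it was 2. The adjusted p of Casp14 was 0.0609 without array 7, and it passed in 4 of the 5 fits with an array left out that it could enter, which do not include the fit without array 3. Birc3 lost its dye call without array 2, 3, 6 or 7 and Tnfrsf11b without array 2, 3 or 7, while Bcl2a1b kept it only without array 1 or 8. Quantile normalization called 6 members higher and 4 lower with the mutant in Cy5, and scale normalization 5 and 3. Which term holds the genotype depends on how the authors turned the dye-swapped arrays. The replicate Gapdh spots correlated above 0 in 12 of 12 pairs of arrays of the same orientation and below 0 in 16 of 16 pairs of opposite orientation. The ratios were therefore read as already turned to 1 common direction. The spots cannot tell mutant over wild type from its inverse, so that choice rests on the design text. With the inverse, every ratio would change sign, that of Bak1 included. If the ratios were Cy5 over Cy3 instead, the 4 dye calls would be the comparison of mutant with wild type and Bak1 would not be called (0.026, adjusted p = 0.939).

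The wider pathway was read from lists of ligands, other receptors, adaptors, mitochondrial proteins, p53 targets and execution factors with other symbols. Of 68 such genes, 44 were tested and 0 passed in either direction, where 0.676% of all probes were called higher and 3.53% lower. At an unadjusted limma p below 0.05 there were 4 higher and 4 lower, where 10.2% and 10.3% of all probes passed in each direction. The nearest to the threshold was Cflar, which encodes FLIP, the decoy of caspase 8 at death receptors. It was above 0 on 6 of 8 arrays, below on arrays 5 (-0.52) and 8 (-0.36), with a ratio of 1.01 ± 0.26 (SE) and an adjusted p of 0.0503, and it passed under 4 of the other settings and when array 5, 6 or 8 was left out. Tank, at -0.44, had the lowest ratio of the adaptors. The death ligand Tnfsf10 (TRAIL) was below 0 on 6 of 6 arrays, with a ratio of -1.20 (adjusted p = 0.144). Its lowest values were -3.69 (array 2) and -1.65 (array 8), its median was -0.70 and its highest value -0.0099 (array 7). Tnf had the highest ratio of the ligands, 0.19. Of the 8 ligands tested, 5 were below 0 and their median was -0.16.

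Mitochondrial proteins ran from Endog, a nuclease, at -0.89 (adjusted p = 0.106) to Bcap31 at 0.59 (adjusted p = 0.249), with 7 of 8 above 0 and a median of 0.28. BAG and BH3-only genes with other symbols ran from Pmaip1, a p53 target known as NOXA, at 0.11 to Bag3, a co-chaperone, at 0.76 (adjusted p = 0.0823). The p53 list spanned -0.23 (Ei24) to 0.17 (Mdm2), and 1 of its 6 genes was above 0. The execution list spanned -0.36 (Cidea) to 0.38 (Parp1). In the dye part 2 of the 44 genes tested passed as higher with the mutant in Cy5, where 4.45% of all probes did. They were Edar, the receptor of hair placodes (1.04, adjusted p = 0.0389), and Daxx (1.10, adjusted p = 0.0360). The nuclease Dnase2a (-0.93, adjusted p = 0.0493) passed as lower, where 0.894% of all probes did. Receptors with other symbols ran from Ltbr at -0.054 to Edar at 0.34.

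Of 38 tested genes that mark cell types of skin, 28 did not pass. There were 5 higher (Krt1, Vim, Fbn1, Mcpt2 and Cfd), where 0.676% of all probes were called higher. A further 5 were lower (the hair genes Krt31, Krtap9-1 and Krt71, and C1qb and Mbp), where 3.53% of all probes were. For Vim the dye orientations did not overlap, with means of 0.47 with the mutant in Cy5 and 1.88 in Cy3. Vim also passed in the dye part (-0.71, adjusted p = 0.0472). For Fbn1 they did not overlap either, with means of 1.39 and 0.11. Markers of 1 cell type did not all have 1 sign. Beside Krt1 the keratinocyte gene Ivl was at -1.06, and beside C1qb the macrophage gene C1qa was at 0.39. Beside Mcpt2 the mast cell gene Fcer1a was at -0.29, and none of these passed. Of the 8 hair follicle genes tested, 5 were below 0 and 3 above. The 3 above 0, Krt35 (0.63), Foxn1 (0.47) and Msx2 (0.026), did not pass. Of the 5 fibroblast genes tested, 4 were above 0, and Lum was at -0.21 without passing. The lymphocyte markers, the cells in which several of the TNF receptors are known, had 4 tested, 0 passed, 4 above 0 and a median of 0.62. The macrophage and dendritic cell markers had 4 tested, 1 lower and a median of -0.56. Their part in the ratios of the members was not tested.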

How the data were processed

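The authors deposited 1 table of log2 ratios for 8 arrays, with 2 channels each. Base 2 is assumed. How images were analysed and values corrected and normalized was not given in the sources used here. Per the labels, dyes were coupled by TIGR's protocols. Its 23232 rows hold 864 blank, 275 buffer and 96 control spots, which were left out; 232 Gapdh spots were averaged, leaving 21766 probes. RefSeq accessions named 6518 of them. Ratios were fitted in limma 3.58.1 (R 4.3.3), with a mean and a dye term, after testing the fit on simulated data. Members and lists were chosen with earlier results of these data known. The genes given in detail were members past the test in either term, the highest and lowest ratio of each role, members of 1 sign on at least 6 arrays, and the extreme means of the untested; other members are named to account for all. For pathway lists the extremes and the calls were named; Tnfsf8, Tnfsf14 and Htra2 were chosen after their values were seen. The number of arrays limits the precision: the members' 95% intervals reached a median of 0.52 to either side. Other filters, scalings, dye readings and left-out arrays were tried. The values of 2 members, which the counts include, are not reported here.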

Additional observations from a re-analysis of the deposited data

Results flagged for a closer look

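In 5 of 46 sets of values, 1 array lay far from the others of the same gene by Dixon's criterion. About 1 in 20, or 2.3 sets, would be flagged if the values of a gene came from 1 normal distribution. The arrays differed in spread, with SDs from 0.57 (array 5) to 1.60 (array 2), so 5 against 2.3 is not a test of chance. All 5 were high values. Bcl2l1 was 3.88 and Casp9 3.72 on array 3, the array with the fewest values. Birc2 was 3.12 and Tnfrsf13b 4.68 on array 8. Casp1 was 0.45 on array 1, above 3 other values near -0.17, from -0.19 to -0.16. Arrays 3 and 8 both had the mutant in Cy3, as had array 1.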

How the results depend on the processing

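The member calls changed with most settings. In the ratio (1 member, Bak1), 2 passed under quantile normalization, 2 under scale normalization and 2 with values on all 8 arrays. There were 0 with no dye term, 0 with values on at least 3 arrays in all and 0 on arrays 4 to 8 alone, and 4 if values were Cy5 over Cy3. In the dye part (4 members), 10 passed under quantile and 8 under scale normalization, 1 as Cy5 over Cy3, 1 with named genes alone, and 0 with at least 3 arrays in all or on arrays 4 to 8. Of all probes (504 of 11974 tested), 1137 passed under quantile normalization, 776 under scale normalization and 258 with no dye term. With other sets of probes tested, 130 of 3730 passed among named genes and 46 of 14947 on arrays 4 to 8. Of pathway genes (0), 5 passed under quantile normalization, 2 under scale normalization, 3 as Cy5 over Cy3, and 1 each with centred arrays, with all 8 arrays and with robust empirical Bayes. The members' median (0.26 over 31 members) was 0.090 as Cy5 over Cy3. It was 0.12 over the 47 with at least 3 arrays in all and 0.35 over the 12 with all 8 arrays. Over the 39 on arrays 4 to 8 it was 0.0089. Leaving out 1 array gave 0 to 2 members in the ratio, 0 to 6 in the dye part, 209 to 473 probes, 0 to 1 pathway genes and a median of 0.064 to 0.36, with 15 to 29 members tested, so part of each change comes from which members could be tested. No direction of a called member reversed under any setting run. Each ratio already pairs mutant with wild type on 1 array, and no further replicate number was there to block on.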

Other observations

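Some ligand and mitochondrial genes of the pathway, chosen after their values were seen, had ratios of 1 sign on nearly every array without passing the test. Tnfsf14, which encodes LIGHT, was below 0 on 7 of 7 arrays, from -1.20 to -0.27, with a ratio of -0.63 ± 0.18 (SE, limma adjusted p = 0.0778). Tnfsf8, the ligand of CD30, was below 0 on 5 of 6 arrays, with a ratio of -0.95 (adjusted p = 0.0706), and its receptor gene Tnfrsf8 had a mean of -0.29 over 5 arrays. Htra2, a mitochondrial protease that binds BIRC proteins, was above 0 on 8 of 8 arrays, from 0.13 to 1.03, with a ratio of 0.45 (adjusted p = 0.147).

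In 5 pairs, members lie side by side in the genome with no protein-coding gene between them (0 genes). Casp4 and Casp12 had the same sign on 5 of 5 shared arrays, and Tnfrsf4 and Tnfrsf18 on 3 of 4. Birc2 and Birc3 had the same sign on 3 of 6 shared arrays, Casp1 and Casp4 on 1 of 3, and Tnfrsf1b and Tnfrsf8 on 1 of 5. These are given as values, without a test.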
